A study of Mus musculus with 12 samples.

Results

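The 10 genes described here set the pace of the G1 phase of the cell cycle, and they were selected by symbol among the 54838 genes of the count table. They are the D-type cyclins Ccnd1, Ccnd2 and Ccnd3, their kinases Cdk4 and Cdk6, the E-type cyclin Ccne1, and the CDK inhibitors Cdkn1a (p21), Cdkn1b (p27), Cdkn1c (p57) and Cdkn2b (p15). All 10 passed the filter on low counts, which left 15938 genes to be tested. RNA was sequenced from the ileum of wild-type C57BL/6J females between 8 and 14 weeks of age, with 12 mice in 4 groups of 3. Water + PBS mice had plain drinking water and an intraperitoneal injection of PBS, and water + Dex mice had plain water and 200 µg of dexamethasone (Dex, in the product Rapidexon), a synthetic glucocorticoid. ZnSO4 + PBS and ZnSO4 + Dex mice had the same injections after 7 days on drinking water with 25 mM ZnSO4. Every mouse was injected, and ileum was taken 2 h later in all groups, so a Dex effect here is an early one, while a ZnSO4 effect followed days of exposure.

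Cells enter the cycle when D-type cyclins bind CDK4 or CDK6 and phosphorylate the retinoblastoma protein, which frees E2F factors to switch on cyclin E and the genes of DNA replication; cyclin E with CDK2 then completes the step into S phase. INK4 inhibitors such as p15 bind only CDK4 and CDK6, whereas the Cip/Kip inhibitors p21, p27 and p57 bind cyclin-CDK complexes and act chiefly on CDK2. In the intestine these genes stand between the dividing cells of the crypt and the arrested, differentiated cells of the villus. Cdkn1a is the classical p53 target, Cdkn2b a classical target of TGF-beta signalling, and Cdkn1c an imprinted gene known to be induced by glucocorticoids.

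The deposited counts summed to between 10760132 and 11827487 per library. The 4 ileal enterocyte markers Fabp6, Slc10a2, Nr1h4 and Fgf15 had counts in every library. The glucocorticoid targets Fkbp5, Tsc22d3 and Per1 rose with Dex (average log2 changes 3.36, 3.22 and 2.13). The metallothioneins Mt1 and Mt2 rose with ZnSO4 (4.60 and 5.22) and the zinc importer Slc39a4 fell by 3.22, each by the edgeR test used below. One library stood apart by its enterocyte markers, ZnSO4 + Dex replicate 2, with a summed level of 6308 CPM (counts scaled to library size) against 9153 to 15497 in the other 11. Without it the called members were the same in 7 of the 8 comparisons made, and Ccnd2 was added to those called with both treatments together. By other markers ZnSO4 + PBS replicate 3 differed from its group. Its smooth muscle sum was 2709 CPM (1523 and 1504 in replicates 1 and 2) and its fibroblast sum 1736 CPM (1009 and 1151). Its ileal enterocyte sum of 4798 CPM was the lowest. Without it Cdkn1c was no longer called for ZnSO4 in PBS mice (edgeR adjusted p = 0.11). The summed level of 8 B cell markers differed widely within groups, from 29.3 to 649 CPM in water + PBS mice and 12.3 to 486 CPM in ZnSO4 + PBS mice, with 15.7 to 235 CPM under Dex and 13.2 to 71.5 CPM under both treatments. The tissue is bulk ileum, so fewer cells of a type and less RNA per cell cannot be told apart.

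Stretches of 250 bases before the annotated start are shown for the 4 genes with a promoter entry that were called in an average effect of Dex or ZnSO4. RefSeq promoters (GRCm38.p6) matched 7 of the 10 genes; Cdkn1c, Ccnd1 and Ccnd2 are the other 3. They were searched on both strands for AGAACA (the hexamer repeated in the glucocorticoid response element), for the metal response element cores TGCACNC and TGCGCNC, and for the E2F sites TTTGGCGC and TTTCGCGC, and matches are in capitals. The Cdkn1a stretch is chr17:29090729-29090978 on the plus strand, Cdkn2b is chr4:89311033-89311282 on the minus strand, Cdk6 is chr5:3343643-3343892 on the plus strand and Ccne1 is chr7:38107491-38107740 on the minus strand. RefSeq's Cdk6 start lies inside the span given for the gene below, so that stretch is within it.
Cdkn1a: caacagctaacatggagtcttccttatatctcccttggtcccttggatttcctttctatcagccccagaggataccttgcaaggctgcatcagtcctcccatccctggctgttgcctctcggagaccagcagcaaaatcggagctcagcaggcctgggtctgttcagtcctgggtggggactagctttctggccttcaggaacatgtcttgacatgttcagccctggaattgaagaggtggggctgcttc
Cdkn2b: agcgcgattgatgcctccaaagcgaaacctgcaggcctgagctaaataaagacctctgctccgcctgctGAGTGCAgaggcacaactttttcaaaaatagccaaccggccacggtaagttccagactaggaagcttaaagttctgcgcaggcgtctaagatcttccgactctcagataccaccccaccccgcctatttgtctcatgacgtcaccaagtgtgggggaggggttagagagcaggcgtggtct
Cdk6: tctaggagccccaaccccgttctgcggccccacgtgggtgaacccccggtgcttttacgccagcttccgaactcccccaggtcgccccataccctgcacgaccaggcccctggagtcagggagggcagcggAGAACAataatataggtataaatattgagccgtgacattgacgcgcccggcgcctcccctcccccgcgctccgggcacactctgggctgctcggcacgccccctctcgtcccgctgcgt
Ccne1: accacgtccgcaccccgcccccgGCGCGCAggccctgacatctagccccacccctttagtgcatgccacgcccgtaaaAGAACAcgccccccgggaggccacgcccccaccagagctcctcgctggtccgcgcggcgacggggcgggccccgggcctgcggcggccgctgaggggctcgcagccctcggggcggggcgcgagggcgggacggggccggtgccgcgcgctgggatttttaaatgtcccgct

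The Cdkn1a stretch held none of these motifs, and neither did the stretch before its second RefSeq start. The Cdkn2b stretch held GAGTGCA, which is TGCACNC read on the other strand, 181 bases before the start, and the Cdk6 stretch held AGAACA 119 bases before it. The Ccne1 stretch held AGAACA 172 bases before the start and GCGCGCA, which is TGCGCNC on the other strand, 227 bases before it, and the 3 other genes with an entry had no match. Such matches are common: AGAACA was found in 16.1% of all 32851 promoter stretches, TGCACNC in 10.4% and TGCGCNC in 12.5%, whereas TTTGGCGC was in 0.417% and TTTCGCGC in 0.256%. The letters describe these stretches and were not tested as sites.

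Levels can be set side by side only per length of exon, as normalised counts per kb. The length used is that of the merged exons of all annotated transcripts, 3553 bases over 5 transcripts for Cdkn1a and 1390 over 1 for Cdkn2b. In water + PBS mice the inhibitor Cdkn2b was the highest of the 10 with a mean of 962 per kb (range 928 to 1009). Cdkn1a followed with 674 (639 to 700.1). By normalised count alone Cdkn1a was above Cdkn2b (means 2395 and 1337), so their order rests on these lengths. The order of the other genes depends on such lengths too. Cdk4, Ccnd1 and Ccnd2 came next at 342, 331 and 318 per kb, with ranges that overlapped, so their order is not set. Cdkn1b lay below them at 191 per kb. The remaining 4 were much lower, with Ccnd3 at 43.6, Ccne1 at 35.3, Cdk6 at 27.4 and Cdkn1c at 16.4 per kb. The ranges of Ccnd3 and Ccne1 overlapped, as did those of Ccne1 and Cdk6, and Cdkn1c (12.9 to 19.2) lay below all of them. Under Dex the order differed. In water + Dex mice Cdkn1a was the highest at 2147 per kb and Cdkn2b stood at 191 per kb, within the range of Ccnd2 (188 to 236), and Cdkn1c at 49.1 was no longer the lowest.

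**Figure D1:**
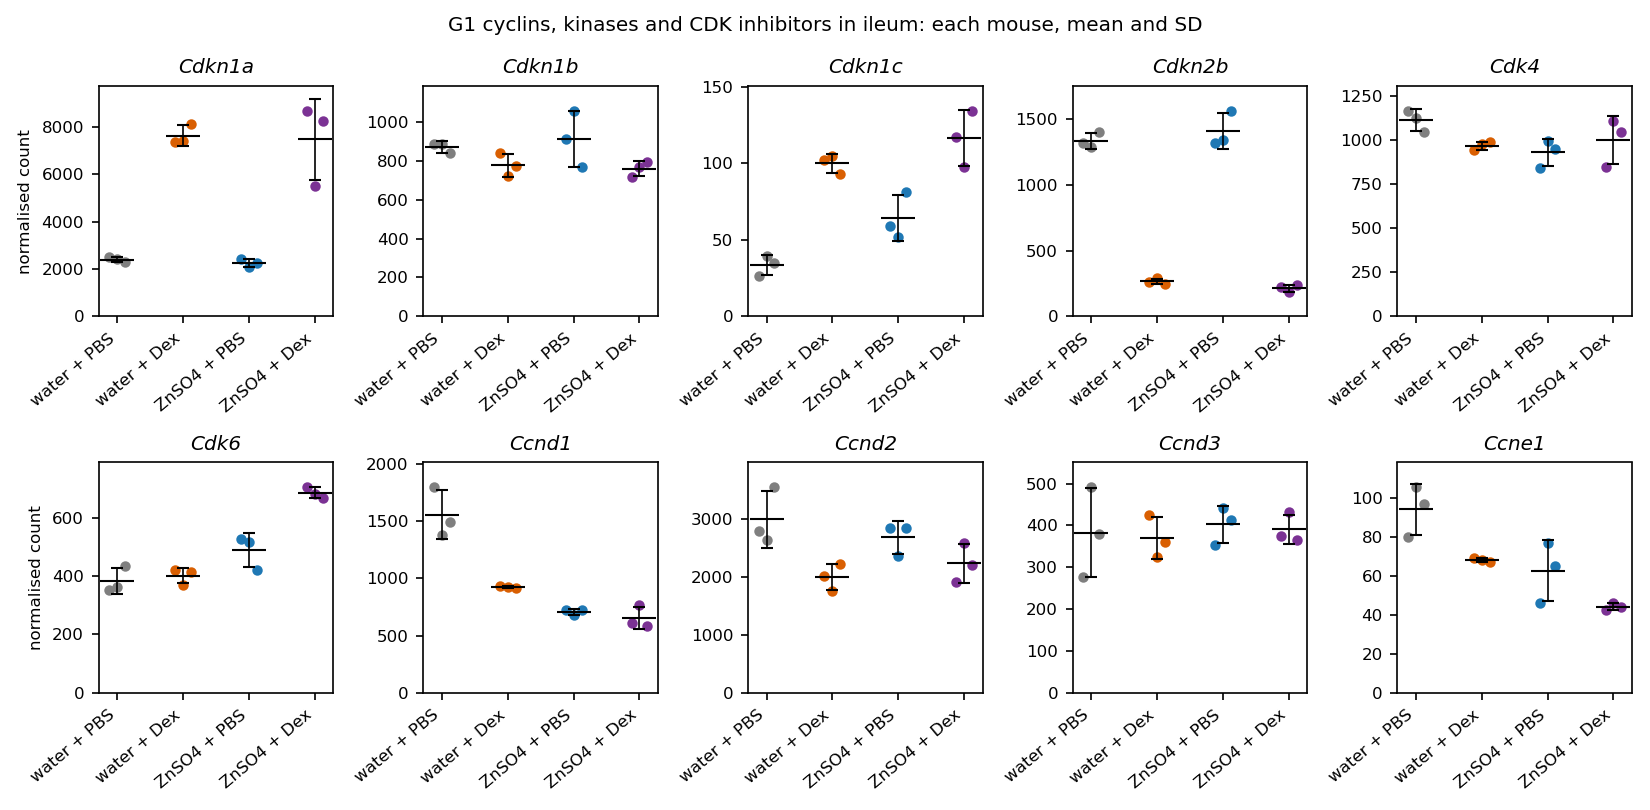
Normalised count (y axis, starting at 0) of each gene in each of the 12 mice, grouped by treatment; points are mice, horizontal marks and bars are the mean and SD of 3 mice. Cdkn1a and Cdkn1c sit higher and Cdkn2b lower in all 6 Dex mice, Ccnd1 is highest in the 3 water + PBS mice, and Cdk6 is highest in the 3 ZnSO4 + Dex mice.

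The inhibitor that rose most in absolute level with Dex was Cdkn1a (chr17:29090976-29100727 in GRCm38, the build of the files; plus strand). Its normalised counts in the 3 mice of a group were 2487, 2426 and 2272 in water + PBS and 7359.5, 7391 and 8138 in water + Dex. On ZnSO4 they were 2417, 2083 and 2271 after PBS and 8687, 5524 and 8240.3 after Dex. Every Dex mouse lay above every PBS mouse, and the lowest Dex value belonged to ZnSO4 + Dex replicate 2, the library that stood apart. Dex raised Cdkn1a 3.19-fold in water mice (log2 fold change 1.67, SE 0.15, adjusted p = 2.8e-05, edgeR quasi-likelihood test with Benjamini-Hochberg adjustment over all genes, as throughout) and 3.32-fold in ZnSO4 mice (log2 fold change 1.73, SE 0.15, adjusted p = 1.9e-05); without that library the second log2 change was 1.91. The difference between these 2 effects was 0.06 on the log2 scale, with a 95% interval of -0.39 to 0.50. ZnSO4 itself left no detectable difference. The interval of its log2 change was -0.40 to 0.23 in PBS mice and -0.34 to 0.29 in Dex mice. Along 7.68% of its exons Cdkn1a overlaps the opposite-strand gene AC167363.2, which rose with Dex too (average effect, edgeR adjusted p = 2.8e-04). That gene had a mean of 5.56 normalised counts in water + PBS and 18.2 in water + Dex mice. On ZnSO4 its means were 1.54 after PBS and 15.7 after Dex, and its part was not tested.

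Cdkn2b (chr4:89306299-89311039, minus strand), the only INK4 inhibitor among the 10, moved the other way and further. Water + PBS mice had 1319, 1289 and 1402 normalised counts and water + Dex mice 261, 288 and 246. The ZnSO4 + PBS mice had 1322, 1343 and 1567 and the ZnSO4 + Dex mice 221, 185 and 236. The highest of the 6 Dex mice was far below the lowest of the 6 PBS mice, within 2 h of the injection. Dex lowered Cdkn2b 5.04-fold in water mice (log2 fold change -2.33, SE 0.11, adjusted p = 4.7e-07) and 6.59-fold in ZnSO4 mice (log2 fold change -2.72, SE 0.11, adjusted p = 1.3e-07) by edgeR's quasi-likelihood test. By the size of its log2 change Cdkn2b exceeded 99.1% of the 15938 genes in the first of these comparisons and 99.1% in the second, and no other of the 10 genes changed more in either. For ZnSO4 the edgeR adjusted p was 0.71 in PBS mice and 0.13 in Dex mice, with a 95% interval of -0.54 to -0.08 on the log2 scale in the latter.

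Cdkn1c (chr7:143458339-143461050, minus strand), a low gene, was the 1 inhibitor that rose with each treatment given alone. It had 26.3, 39.1 and 35.2 normalised counts in water + PBS mice and 103, 105 and 92.9 in water + Dex mice. ZnSO4 + PBS mice had 59.4, 52.2 and 81.5 and ZnSO4 + Dex mice 117, 98.0 and 135. The ZnSO4 + PBS values fell between those of the water + PBS and water + Dex groups, touching neither. Dex raised Cdkn1c 2.98-fold in water mice (log2 fold change 1.58, SE 0.21, adjusted p = 5.2e-04) and 1.81-fold in ZnSO4 mice (log2 fold change 0.85, SE 0.20, adjusted p = 0.013) by edgeR's quasi-likelihood test. The second call was lost without ZnSO4 + PBS replicate 1 or 2 (edgeR adjusted p = 0.056 and 0.054). ZnSO4 alone raised it 1.92-fold (log2 fold change 0.94, SE 0.21, adjusted p = 0.028, edgeR), and that call was lost without water + PBS replicate 1 or 3 or ZnSO4 + PBS replicate 1 or 3 (edgeR adjusted p from 0.064 to 0.11). Among mice given Dex, ZnSO4 added a log2 difference with an interval of -0.20 to 0.64 (edgeR adjusted p = 0.59).

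Markers of other cell types moved in the same comparisons. The summed level of 5 enteroendocrine markers ran from 198 to 230.2 CPM in water + PBS, 232 to 246 in water + Dex, 263 to 270.4 in ZnSO4 + PBS and 279.9 to 357 in ZnSO4 + Dex mice. The range of water + PBS mice lay below those of the other 3 groups, as it did for Cdkn1c. The same held for 5 goblet cell markers, with 9429 to 9888 CPM in water + PBS and 10759 to 11403 in water + Dex mice. Their sums were 10475 to 12691 in ZnSO4 + PBS and 12175 to 13841 in ZnSO4 + Dex mice. Of the 5 enteroendocrine genes Gcg and Sct rose with the average ZnSO4 effect and Chga with the average Dex effect, and 0 fell with either. Of the 5 goblet cell genes Muc2 and Tff3 rose with ZnSO4 and Tff3 with Dex, and 0 fell. Over all genes 6.24% rose and 6.52% fell with ZnSO4, and 10.4% rose and 11.2% fell with Dex. The part of either cell type in the Cdkn1c result was not tested. The summed level of 6 endothelial markers was 108 to 139 CPM in water + PBS, 82.5 to 88.4 in water + Dex, 133 to 136 in ZnSO4 + PBS and 97.9 to 109.5 in ZnSO4 + Dex mice, lower with Dex where Cdkn1c was higher, and 3 of the 6 (Kdr, Cldn5 and Egfl7) fell with Dex. With the average Dex effect 0 of the 6 endothelial markers rose, where 11.2% of all genes fell and 10.4% rose. With ZnSO4, where Cdkn1c rose, 3 of the 6 (Cdh5, Tek and Egfl7) rose too and 0 fell (median log2 change 0.38), against 6.24% and 6.52% of all genes. The part of endothelial cells was not tested. In no library was any of these enteroendocrine, goblet cell or endothelial markers at 0. Cdkn1c overlaps the annotated antisense gene Gm44732 along 30.7% of its exons, and that gene had 0 counts in all 12 libraries.

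Cdkn1b (chr6:134920401-134925513, plus strand), the inhibitor usually held at a steady level in resting cells, passed no test. Its counts were 887, 889 and 838 in water + PBS mice, 838, 721 and 772 in water + Dex mice, 911, 1058 and 767 in ZnSO4 + PBS mice and 716, 769.5 and 795 in ZnSO4 + Dex mice. The PBS mice on ZnSO4 spread most. For the average Dex effect the 95% interval was -0.38 to -0.05 on the log2 scale (edgeR adjusted p = 0.063), and without ZnSO4 + PBS replicate 3 the adjusted p was 0.011.

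Ccnd1 (chr7:144929931-144939925, minus strand), the D-type cyclin best known as a target of growth signalling, was the 1 gene of the 10 that fell with ZnSO4 alone, and it fell with Dex alone too. Water + PBS mice had 1797, 1378 and 1496 normalised counts, above all 9 other mice, and water + Dex mice had 933, 927 and 917. ZnSO4 + PBS mice had 727, 677 and 719.7 and ZnSO4 + Dex mice 607, 769 and 586. All 6 ZnSO4 mice lay below the lowest water + Dex mouse, and the 2 ZnSO4 groups overlapped. ZnSO4 lowered Ccnd1 2.20-fold in PBS mice (log2 fold change -1.14, SE 0.11, adjusted p = 4.1e-04) and 1.42-fold in Dex mice (log2 fold change -0.50, SE 0.11, adjusted p = 0.030) by edgeR's quasi-likelihood test. The second of these calls was lost without any one of 5 libraries, water + Dex replicates 1, 2 and 3 and ZnSO4 + Dex replicates 1 and 3 (edgeR adjusted p from 0.083 to 0.11). Dex lowered it 1.68-fold in water mice (log2 fold change -0.75, SE 0.11, adjusted p = 0.0014), whereas in ZnSO4 mice the log2 change had an interval of -0.36 to 0.14 (edgeR adjusted p = 0.58). The interaction was 0.64 (SE 0.16) with an unadjusted p of 0.0021 and an adjusted p of 0.95 in edgeR, so a difference between the 2 Dex effects did not pass the correction. The opposite-strand gene LTO1 overlaps 23.4% of the Ccnd1 exons and had 226 to 296 normalised counts per library, with edgeR adjusted p = 0.35 for the average Dex and 0.73 for the average ZnSO4 effect. Markers of 2 immune cell types were lower on ZnSO4 as Ccnd1 was. With the average ZnSO4 effect 4 of 8 T cell markers fell and 0 rose (median log2 change -0.98). Of 5 plasma cell markers 3 fell (Mzb1, Derl3 and Xbp1) and 0 rose (median -0.65), where 6.52% of all genes fell and 6.24% rose. The plasma cell markers summed to 2427 to 2534 CPM in water + PBS, 2001 to 2626 in water + Dex, 1450.1 to 2139.7 in ZnSO4 + PBS and 1541 to 2135 in ZnSO4 + Dex mice, with none at 0, and their part in the Ccnd1 and Ccne1 results was not tested.

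Ccnd2 (chr6:127125162-127152193, minus strand) fell with Dex in water mice. It had 2794, 2641 and 3551 normalised counts in water + PBS mice and 2010.2, 1765 and 2217 in water + Dex mice, without overlap. On ZnSO4 the values were 2850.2, 2354 and 2849 after PBS and 1908, 2584 and 2213 after Dex, and here 1 Dex mouse, replicate 2, lay within the PBS range. The fall in water mice was of -0.58 on the log2 scale (SE 0.14, edgeR adjusted p = 0.024), and the call was lost without water + PBS replicate 3 or water + Dex replicate 1 or 2 (edgeR adjusted p = 0.095, 0.072 and 0.087). In ZnSO4 mice the interval of the log2 change was -0.58 to 0.05. The fall passed the test when the Dex effect was averaged over water and ZnSO4 mice (log2 change -0.42, SE 0.10, edgeR adjusted p = 0.011), and the test of the interaction gave a log2 difference with a 95% interval of -0.12 to 0.76.

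Ccnd3 (chr17:47505051-47599691, plus strand), the D-type cyclin best known from lymphocytes, passed no test in any of the 8 comparisons. Water + PBS mice had 277, 492 and 380.1 normalised counts, which spanned all 9 other values. The other groups had 425, 325 and 359.8 in water + Dex, 355, 441 and 413 in ZnSO4 + PBS and 375, 431 and 365 in ZnSO4 + Dex mice. The 95% intervals of the average log2 effects were -0.33 to 0.23 for Dex and -0.20 to 0.36 for ZnSO4. The lowest Ccnd3 value came from the water + PBS mouse with the lowest B cell marker sum of its group. The highest came from the mouse of that group with the highest sum. In water + Dex and ZnSO4 + PBS mice only the highest values fell in the same mouse. In ZnSO4 + Dex mice the mouse with the highest B cell sum (71.5 CPM) had the lowest Ccnd3 value (365). The part of B cells in the spread of Ccnd3 was not tested.

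Ccne1 (chr7:38097984-38107534, minus strand), the E2F-driven cyclin that acts after the D-type cyclins, was lowest where both treatments were given. It had 79.8, 105 and 96.9 normalised counts in water + PBS mice, 69.1, 68.0 and 67.0 in water + Dex mice and 46.2, 76.9 and 64.8 in ZnSO4 + PBS mice. ZnSO4 + Dex mice had 42.5, 46.1 and 43.8, below every other mouse. Neither treatment alone passed the test, with log2 intervals of -0.97 to -0.19 for ZnSO4 in PBS mice and -0.86 to -0.07 for Dex in water mice (edgeR adjusted p = 0.089 and 0.14). Both together lowered Ccne1 2.13-fold against water + PBS (log2 fold change -1.09, SE 0.18, adjusted p = 0.0014, edgeR). Averaged over the other factor, ZnSO4 lowered it (log2 change -0.60, SE 0.13, edgeR adjusted p = 0.011). The average Dex effect was -0.48 (SE 0.13, edgeR adjusted p = 0.019), but with the B cell marker level as a covariate the adjusted p was 0.064.

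Of the kinases, Cdk6 (chr5:3341485-3531008, plus strand) rose and Cdk4 (chr10:127063534-127067920, plus strand) passed no test. Cdk6 had 352, 361 and 435 normalised counts in water + PBS mice and 419, 370.4 and 413 in water + Dex mice, which overlapped. ZnSO4 + PBS mice had 526, 518 and 421 and ZnSO4 + Dex mice 704, 682 and 667. The 3 mice with both treatments were above the other 9. ZnSO4 raised Cdk6 1.71-fold in Dex mice (log2 fold change 0.77, SE 0.11, adjusted p = 0.0025) and Dex raised it 1.40-fold in ZnSO4 mice (log2 fold change 0.49, SE 0.11, adjusted p = 0.0095) by edgeR's quasi-likelihood test. In mice without the other treatment neither passed, with log2 intervals of 0.12 to 0.58 for ZnSO4 (edgeR adjusted p = 0.089) and -0.17 to 0.30 for Dex (adjusted p = 0.77); without water + PBS replicate 3 the first had an adjusted p of 0.0497, under the threshold. The interaction was 0.42 (SE 0.15, unadjusted p = 0.016, edgeR adjusted p = 0.95), so the larger rise with both was not told apart from the sum of 2 effects. The average ZnSO4 effect was 0.56 (SE 0.08, edgeR adjusted p = 7.2e-04). The average Dex effect of 0.28 (SE 0.08, edgeR adjusted p = 0.021) was lost without water + PBS replicate 1 or 2 or water + Dex replicate 1 or 3, with adjusted p from 0.052 to 0.063. The summed level of 8 T cell markers was 76.2 to 148 CPM in water + PBS and 75.1 to 99.8 CPM in water + Dex mice. On ZnSO4 it was 37.4 to 87.5 CPM after PBS and 40.5 to 43.7 CPM after Dex, with none at 0. Of the 8, 4 fell and 0 rose with the average ZnSO4 effect, against 6.52% and 6.24% of all genes. Of 6 fibroblast, 6 endothelial and 6 smooth muscle markers 1, 3 and 1 rose and 0 fell with that effect (median log2 changes 0.45, 0.38 and 0.37). The part of immune cells or of these other cell types in the Cdk6 values was not tested.

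Cdk4 had 1164, 1124 and 1042 normalised counts in water + PBS mice, 939.9, 973 and 985 in water + Dex mice, 841, 994 and 949 in ZnSO4 + PBS mice and 847, 1108 and 1043 in ZnSO4 + Dex mice. The water + PBS mice were above the mice given either treatment alone, but by less than the correction required: the 95% log2 intervals were -0.42 to 0.02 for Dex and -0.48 to -0.04 for ZnSO4, with edgeR adjusted p = 0.26 and 0.17. The opposite-strand gene Tspan31 overlaps 19.7% of the Cdk4 exons and had 339 to 404 normalised counts per library.

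**Figure D2:**
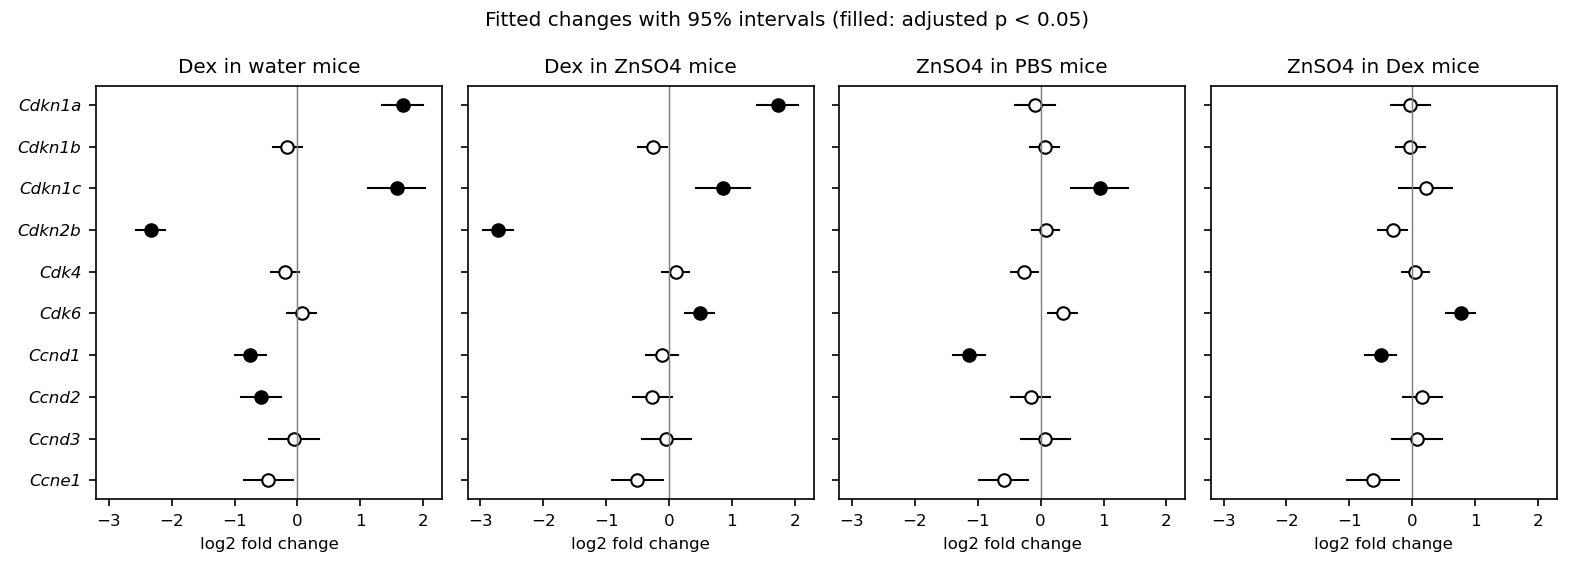
Fitted log2 fold change (x axis) of each of the 10 genes in the 4 comparisons of a treatment with its control; lines are 95% intervals from edgeR's quasi-likelihood fit and filled points have an adjusted p under 0.05. Cdkn1a, Cdkn1c and Cdkn2b are filled in both Dex panels, Cdkn1c also in PBS mice given ZnSO4, Ccnd1 in both ZnSO4 panels, Ccnd1 and Ccnd2 in water mice given Dex, and Cdk6 in the 2 panels that involve mice with both treatments.

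Counted by comparison, Dex in water mice raised 2 of the 10 genes (Cdkn1a, Cdkn1c) and lowered 3 (Cdkn2b, Ccnd1, Ccnd2), against 5.41% and 4.51% of all tested genes. Dex in ZnSO4 mice raised 3 (Cdkn1a, Cdkn1c, Cdk6) and lowered 1 (Cdkn2b), against 6.65% and 7.08%. ZnSO4 in PBS mice raised 1 (Cdkn1c) and lowered 1 (Ccnd1), where 2.11% and 2.54% of all genes did so, and ZnSO4 in Dex mice raised 1 (Cdk6) and lowered 1 (Ccnd1), where 1.83% and 2.54% did. Both treatments together, against water + PBS, raised Cdkn1a, Cdkn1c and Cdk6 and lowered Cdkn2b, Ccnd1 and Ccne1, against 11.5% and 11.9%. The average Dex effect raised Cdkn1a, Cdkn1c and Cdk6 and lowered Cdkn2b, Ccnd1, Ccnd2 and Ccne1 (10.4% and 11.2% of all genes), and the average ZnSO4 effect raised Cdkn1c and Cdk6 and lowered Ccnd1 and Ccne1 (6.24% and 6.52%). With the study's added cut-off of 0.8 on the log2 change, 3 remained for Dex in water mice (4.42% of all genes in either direction), 0 for ZnSO4 in Dex mice (1.9%), 3 for the average Dex effect (6.31%) and 1 for the average ZnSO4 effect (2.71%). The cut-off left 2 of 2 for ZnSO4 in PBS mice (1.7%), 3 of 4 for Dex in ZnSO4 mice (5.81%) and 6 of 6 for both together (9.66%). The comparisons against water + PBS share those 3 control libraries, and the averages reuse all 12. Pooled over the 10 genes, the median log2 change was -0.13 for the average Dex effect and -0.03 for the average ZnSO4 effect, beside -0.00135 and -0.00459 over all genes, so the 10 moved in both directions and not as a block.

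No interaction was called among the 10 genes or among all 15938 (0%) in edgeR, where 794 genes had an unadjusted p under 0.05, and DESeq2 called none of the 10. Members with an unadjusted p under 0.05 in edgeR's quasi-likelihood test were Ccnd1 and Cdk6, whose values stand above, Cdkn2b (interaction -0.39, unadjusted p = 0.020) and Cdkn1c (interaction -0.72, unadjusted p = 0.026), and for each the edgeR adjusted p was 0.95. The intervals of these interactions were wide, at 0.28 to 0.99 for Ccnd1 and -1.34 to -0.10 for Cdkn1c on the log2 scale.

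**Figure D3:**
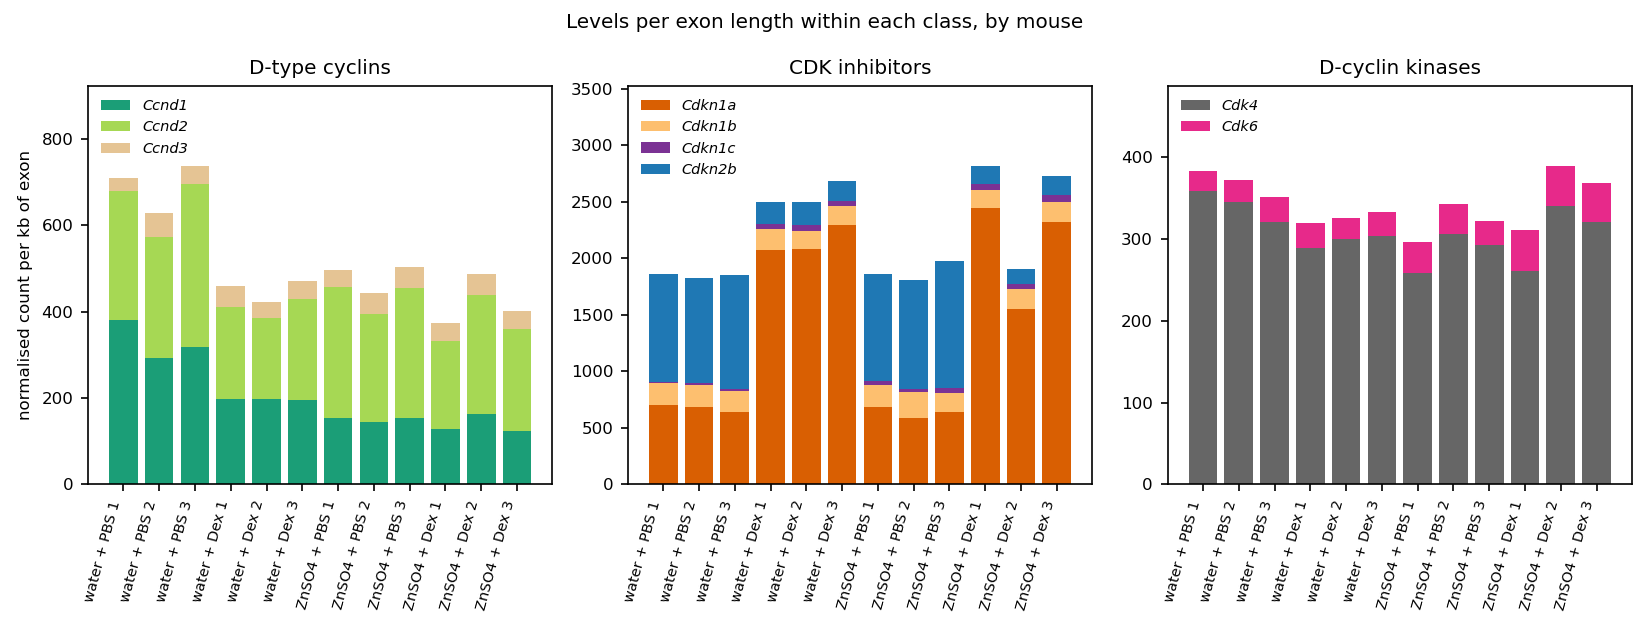
Stacked bars of normalised count per kb of exon (y axis, from 0) for the D-type cyclins, the CDK inhibitors and the D-cyclin kinases in each of the 12 mice. The inhibitor bars of the 6 Dex mice consist mostly of Cdkn1a and those of the 6 PBS mice of Cdkn2b and Cdkn1a; the D-cyclin bars are tallest in the water + PBS mice.

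Summed within their classes and per kb of exon, the transcripts changed in make-up as well as in amount; these sums are descriptions without a test. The 3 Cip/Kip inhibitors together reached 882 ± 36.1 per kb (SD, n = 3) in water + PBS and 2367 ± 120.0 in water + Dex mice, 867 ± 36.8 in ZnSO4 + PBS and 2331 ± 486 in ZnSO4 + Dex mice. Cdkn1a made up 76.4 ± 0.600% of that sum in water + PBS and 90.7 ± 0.802% in water + Dex mice. The ratio of Cdkn1a to Cdkn2b per kb was 0.703 ± 0.0596 in water + PBS and 0.630 ± 0.0769 in ZnSO4 + PBS mice, against 11.3 ± 1.47 and 13.6 ± 1.87 in the matching Dex groups. Per kb of merged exon, Cdkn2b was the higher of the pair in all 6 PBS mice and Cdkn1a in all 6 Dex mice. By normalised count alone Cdkn1a was the higher in the PBS mice too (2083 to 2487 against 1289 to 1567). The order of the pair in PBS mice therefore rests on the exon lengths, and the shares in this paragraph depend on such lengths too. The D-type cyclins summed to 693 ± 56.6 per kb in water + PBS mice (629 to 738), above 451 ± 26.3 in water + Dex, 482 ± 32.4 in ZnSO4 + PBS and 421 ± 58.8 in ZnSO4 + Dex mice, whose ranges overlapped one another. Ccnd1 held 47.7 ± 5.47% of the D-cyclin sum in water + PBS and 43.7 ± 2.74% in water + Dex mice, but 31.3 ± 1.01% and 33.0 ± 1.75% in the 2 ZnSO4 groups, where Ccnd2 held 59.1 ± 2.47% and 56.4 ± 2.22%. The D-cyclin sum of water + PBS mice lay above those of the 3 treated groups, and the share of Ccnd1 was lower in all 6 ZnSO4 mice than in all 6 water mice. Cdk6 was the minor kinase throughout, at 7.45 ± 1.22% of the sum of Cdk4 and Cdk6 in water + PBS, 8.79 ± 0.635% in water + Dex, 10.9 ± 1.68% in ZnSO4 + PBS and 13.9 ± 2.01% in ZnSO4 + Dex mice.

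The rest of the G1/S machinery was read from a list of 27 genes, of which 26 were tested. With the average Dex effect 0 rose and 9 fell (median log2 change -0.18 beside -0.00135 over all genes), where 10.4% of all genes rose and 11.2% fell. Furthest down were E2f2 and E2f3, factors that activate transcription, with log2 changes of -1.29 for E2f2 and -1.17 for E2f3 (edgeR adjusted p = 4.7e-06 and 3.3e-05). E2f1, the other activator, was at -0.26 and did not pass (edgeR adjusted p = 0.17; named after its values were seen). The INK4 inhibitor Cdkn2d fell by 0.65, the replication licensing factor Cdc6 fell by 0.56 and Cdk2, the partner of cyclin E, fell by 0.32, with edgeR adjusted p = 0.0047, 5.5e-04 and 0.034. With the average ZnSO4 effect 1 rose and 3 fell (median -0.11 beside -0.00459), against 6.24% and 6.52% of all genes. Those were the repressive E2f5, which rose by 0.41, and Cdc6, the CDK-activating phosphatase Cdc25a and the E2F partner Tfdp1, at -0.60, -0.41 and -0.25 (edgeR adjusted p = 0.0064, 9.7e-04, 0.0054 and 0.015). Cdc6, a gene under E2F control like Ccne1, fell with both average effects.

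Of 20 genes of S phase and mitosis, all tested, 2 rose and 0 fell with the average Dex effect, against 10.4% and 11.2% of all genes: Rrm2, a subunit of ribonucleotide reductase, at 1.16 (edgeR adjusted p = 2.2e-05) and the topoisomerase Top2a at 0.29 (0.038). With the average ZnSO4 effect 0 rose and 3 fell, against 6.24% and 6.52% of all genes, all of them subunits of the replicative helicase, Mcm2 at -0.42, Mcm5 at -0.41 and Mcm4 at -0.33 (edgeR adjusted p = 0.0081, 0.031 and 0.0498). The medians of the list were -0.05 for Dex and -0.17 for ZnSO4. With both treatments together 1 rose and 5 fell, against 11.5% and 11.9% of all genes; the riser was again Rrm2, and those that fell were 5 Mcm subunits. Mki67, the standard marker of cycling cells, is in this list and passed neither test (edgeR adjusted p = 0.96 and 0.77), and was named after its values were seen. Of 5 stem cell markers, 1 rose and 2 fell with the average Dex effect, against 10.4% and 11.2% of all genes. Rnf43 was at 0.60, Lgr5 at -0.52 and Ascl2 at -0.55 (edgeR adjusted p = 7.6e-04, 0.0050 and 0.012). With ZnSO4 Lgr5 rose by 0.62 (edgeR adjusted p = 0.0038) and 0 fell, against 6.24% and 6.52%. Their part in the results was not tested.

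**Figure D4:**
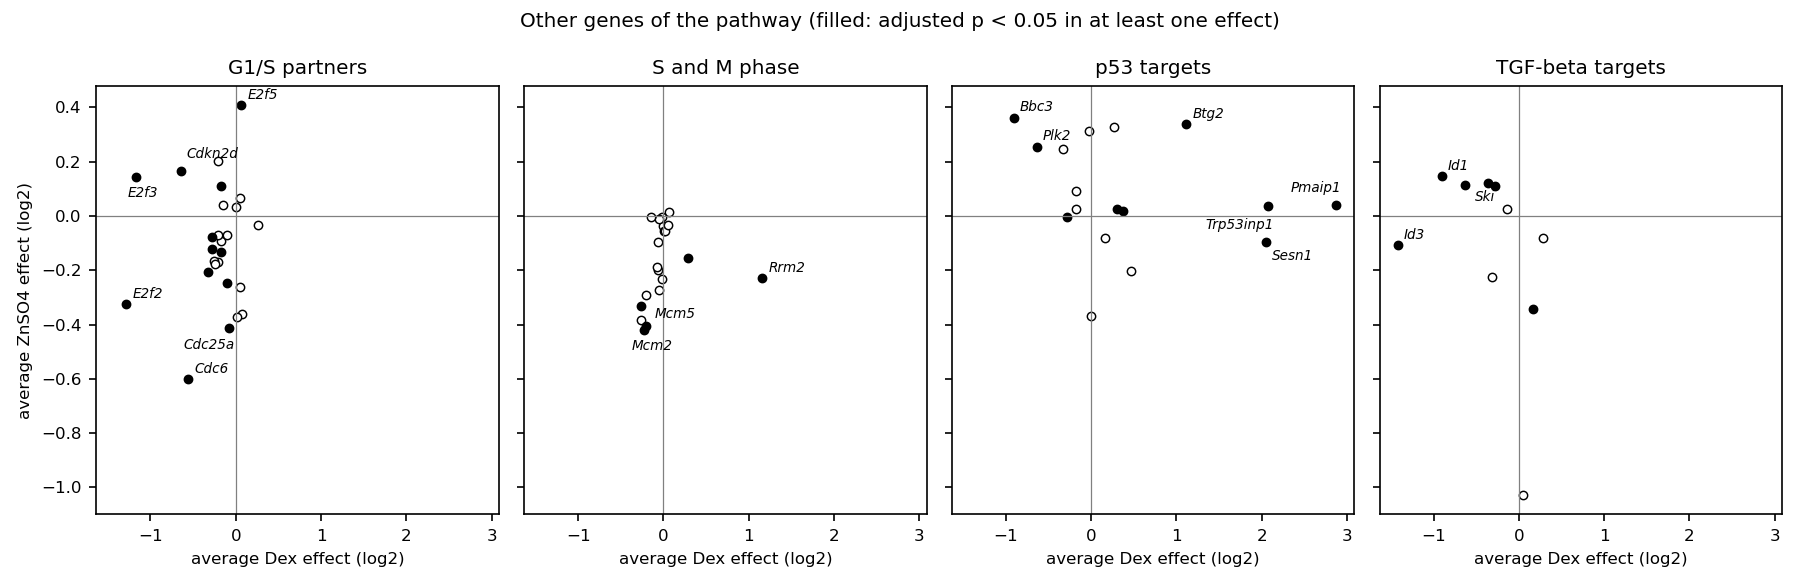
Average Dex effect (x axis) against average ZnSO4 effect (y axis), both log2 fold changes from the same 12 libraries, for the tested genes of 4 lists; filled points have an adjusted p under 0.05 in at least 1 of the 2 effects. E2f2 and E2f3 lie far left among the G1/S partners, Pmaip1, Trp53inp1 and Sesn1 far right among the p53 targets, and Id1 and Id3 left among the TGF-beta targets.

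Cdkn1a and Cdkn2b head well known target sets, whose other genes were read beside them. Of 18 p53 targets without Cdkn1a, 17 were tested. Averaged over both kinds of water, Dex raised 6 and lowered 3 (median log2 change 0.16), where 10.4% of all genes rose and 11.2% fell, and ZnSO4 raised 0 and lowered 0 (all genes 6.24% and 6.52%). The largest were Pmaip1, the BH3-only protein Noxa, at 2.87, Trp53inp1 at 2.08, Sesn1, a regulator of mTORC1, at 2.05 and the antiproliferative Btg2 at 1.11 (edgeR adjusted p = 2.9e-06, 2.5e-08, 1.4e-07 and 4.9e-05). The BH3-only gene Bbc3 (Puma) went the other way at -0.91 (edgeR adjusted p = 7.3e-04), so the list did not move in 1 direction. Mdm2, the p53 target that limits p53 itself, did not pass (edgeR adjusted p = 0.19) and was named after its values were seen. Of 10 TGF-beta targets without Cdkn2b, all tested, Dex lowered 5 and raised 0 (median -0.30; all genes 11.2% and 10.4%), led by Id3 at -1.42, Id1 at -0.90 and the Smad corepressor Ski at -0.64 (edgeR adjusted p = 9.8e-08, 6.2e-05 and 3.4e-06). Id1 and Id3 are best known as targets of BMP signalling. Smad7, the feedback inhibitor of the pathway, did not pass (edgeR adjusted p = 0.13; named after its values were seen). With ZnSO4 only Tgfbi passed, at -0.34 (edgeR adjusted p = 0.014), so 1 of 10 fell and 0 rose, against 6.52% and 6.24% of all genes.

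Cdkn1c lies in an imprinted domain of chromosome 7, and 11 of 12 other genes of that domain were tested. With Dex 1 rose, the potassium channel gene Kcnq1 at 0.61, and 1 fell, the stem cell factor Ascl2 at -0.55 (edgeR adjusted p = 5.3e-05 and 0.012), a share near the 10.4% and 11.2% of all genes. With ZnSO4 Kcnq1 rose by 0.23 and Cars, a tRNA synthetase, was at -0.41 (edgeR adjusted p = 0.046 and 0.0064). That is 1 of 11 in each direction, against 6.24% and 6.52% of all genes. The median over the 11 was -0.04 for Dex and 0.12 for ZnSO4, against 1.22 and 0.58 for Cdkn1c itself. Counts do not separate the parental alleles.

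For the 7 genes called in an average effect, the genes with the most similar pattern were found by Pearson's r of log2 CPM over the 12 libraries among 14961 genes; the points share libraries, treatment groups and depth, so r is a description. Closest to Cdkn1a were Sesn1 (r = 0.996), Tiparp (r = 0.993) and Tesk2 (r = 0.992). Closest to Cdkn2b were Clip2 (r = 0.989), Sertm1 (r = 0.987) and Cdx2 (r = 0.987); Cdx2 is the homeobox factor that marks intestinal epithelium. Cdkn1c was followed by Hpgd (r = 0.973), Zfp622 (r = 0.969) and Trak1 (r = 0.963); Hpgd degrades prostaglandins. Cdk6 was followed by Cracr2a (r = 0.952), Add3 (r = 0.934) and Mprip (r = 0.931), and Ccnd1 by Tsn (r = 0.968), Slc7a1 (r = 0.957) and Mars (r = 0.954), among which Slc7a1 imports cationic amino acids and Mars charges methionine tRNA. Ccnd2 had the least similar neighbours, Ampd2 (r = 0.923), Hopx (r = 0.917) and Alkbh4 (r = 0.899). Ccne1 was followed by Plekha2 (r = 0.950), Slx4 (r = 0.945) and Gga3 (r = 0.944), of which Slx4 is a scaffold of DNA repair nucleases.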

How the data were processed

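Ileum RNA of 12 mice was sequenced single-end from stranded TruSeq libraries on a NextSeq 500. Per the labels and methods, the authors mapped reads to mm10 with HISAT 2.0.4, left out reads mapping to several places, counted per gene with featureCounts and tested with DESeq2 at a false discovery rate of 5%; the strand setting and annotation release are not given in the sources used here. The deposited values are raw counts per Ensembl gene; columns were assigned to groups by the letters of their names matched to sample titles.

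The 10 members and all gene lists were chosen with earlier results of these data known. Counts were analysed in R 4.3.3 with edgeR 4.0.16: filterByExpr (minimum count 10), TMM factors, 1 quasi-likelihood fit of the 4 group means over 12 libraries and Benjamini-Hochberg adjustment over 15938 genes, which hold 99.8% of counts. A gene was called at an adjusted p under 0.05. The SE is the size of the log2 change divided by the square root of F. To normalise, each count was scaled to the mean TMM-adjusted library size. Exon lengths are from GENCODE on GRCm38, with the exons of all transcripts of a gene merged. The labels call the 3 libraries of a group biological replicates. With 3 against 3, no exact permutation test can go below 0.1, so none was run.

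All members were named; of other lists, at most 5 called genes by size of change; and for members called in an average effect, the 3 tested genes of at least 1 mean CPM with the highest r (log2 CPM, prior count 2). Alternatives were DESeq2 1.42.0, RLE and upper-quartile factors, other filters, a log2 cut-off of 0.8, only the groups compared, a replicate block, B cell markers as a covariate, and each library left out. The fit was tested on simulated data with known changes. Protein motifs were not searched here.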

Additional observations from a re-analysis of the deposited data

How the results depend on the processing

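Of the calls described above, the following passed the adjusted p in every alternative. With Dex these were Cdkn1a and Cdkn2b, Cdkn1c and Ccnd1 in water mice, and Cdk6 in ZnSO4 mice. With ZnSO4 they were Ccnd1 in PBS mice and Cdk6 in Dex mice. All calls of the average ZnSO4 effect and of both treatments together passed as well. For the average Dex effect Ccnd1, Ccnd2 and Cdkn1c did too. No change of a called gene reversed. With a log2 change above 0.8 asked for as well, the members called were 3 for Dex in water mice, 0 for ZnSO4 in Dex mice, 3 for the average Dex effect and 1 for the average ZnSO4 effect, with 2 of 2 left for ZnSO4 in PBS mice, 3 of 4 for Dex in ZnSO4 mice and 6 of 6 for both together. ZnSO4 in Dex mice counted 1 member with only the groups compared, with the replicate block and with upper-quartile factors, where Ccnd1 was lost (edgeR adjusted p = 0.059, 0.055 and 0.065), and from 1 to 3 with a library left out. ZnSO4 in PBS mice counted 1 with only the groups compared, where Cdkn1c was lost (0.093), and from 1 to 2 with a library left out. Cdkn1c with Dex in ZnSO4 mice was lost with only the groups compared (0.051). Ccnd2 with both treatments (edgeR adjusted p = 0.054) was called by DESeq2 (0.023), without a filter (0.040) and without water + PBS replicate 2 (0.045) or ZnSO4 + Dex replicate 2 (0.026), the library that stood apart. Leaving out ZnSO4 + PBS replicate 1 added Ccne1 for ZnSO4 in Dex mice (0.045) and for Dex in ZnSO4 mice (0.024); leaving out ZnSO4 + PBS replicate 3 added Cdkn1b for Dex in ZnSO4 mice (0.026). Groups left with 2 mice were assumed to vary like the others. The causes were not tested. Replicate numbers did not pair the libraries as a set. Same-numbered libraries of different groups had a median correlation of residuals of -0.0557 over 18 pairs (-0.359 to 0.457), 3 of them over 0.1. Libraries with different numbers had a median of 0.0225 over 36 pairs. The replicate block changed no other call. Depth limits Cdkn1c and Ccne1 most, at 26.3 and 42.5 normalised counts in their lowest libraries.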
